A study of Mus musculus with 9 samples.

Results

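The 3 air control libraries of this series (Air+IgG, replicates 1 to 3) were described on their own, as the baseline of the mouse hippocampus, out of 9 libraries in 3 groups. They were chosen by their titles alone, and no expression value entered the choice. Each held polyadenylated RNA from the hippocampus of mice kept in air and given IgG, the control for an antibody treatment. The same samples carry the treatment label "iso", which the labels do not explain, and the design text gives 3 mice for this group. The labels name no strain, sex or age. The other 6 libraries came from mice exposed to chronic intermittent ethanol and enter no value below.

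The hippocampus is a folded cortical structure needed for forming memories. Granule cells of the dentate gyrus project to the pyramidal cells of CA3, which project to those of CA1, and inhibitory interneurons, astrocytes, oligodendrocytes, microglia and blood vessels fill the space between them. A dissected hippocampus borders the lateral ventricle, which is lined by ciliated ependymal cells and holds the choroid plexus, an epithelium that secretes cerebrospinal fluid. In whole tissue, fewer cells of a type and less RNA per cell cannot be told apart.

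Rounded estimated counts summed to 9227077 in replicate 1, 8321377 in replicate 2 and 10486992 in replicate 3, over 14779 genes. Levels are given as CPM (counts per 1e6 counts) after TMM scaling, so that 1 CPM was worth 9.559, 7.703 and 10.936 counts. Between genes, levels are compared per kilobase of exon, scaled to the same sum in each library and called TPM here (transcripts per 1e6). The median gene had a mean of 24.4 CPM, 2436 genes were above 100 CPM and 63 above 1000 CPM. Protein-coding genes held 99.4% of the counts, through 14398 of the genes. This share describes the deposited table, in which 1 of 18 listed long noncoding RNA genes had values. It includes Lars2 and Gm20594, described below.

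Replicate 2 stood apart from replicates 1 and 3. Among 13844 genes above 1 CPM in all 3 libraries, 114 differed by more than 2-fold between replicates 1 and 3 (0.823%), against 531 between replicates 1 and 2 and 519 between replicates 2 and 3. Pearson's r of log2 CPM across these genes was 0.991 for replicates 1 and 3, 0.977 for 1 and 2 and 0.978 for 2 and 3; genes are not independent replicates. The last number in the sample descriptions was 55 for replicate 1, 60 for replicate 2 and 37 for replicate 3. Its meaning is not given, nor is that of the number before it, so no order of the libraries was read from them. What sets replicate 2 apart was not tested.

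By mean CPM the air control libraries were led by Lars2, through replicate 2 alone, and by the predicted gene Gm20594, both described below; the glutamate transporter gene Slc1a2 followed. The level of Slc1a2, the main astrocytic glutamate transporter, was 5439 CPM in replicate 1, 5711 in replicate 2 and 5557 in replicate 3, and it ranked 2nd, 3rd and 2nd among all genes. Map1b, a microtubule-associated protein of axons and dendrites, had 3133, 3311 and 3226 CPM. In both genes the libraries lay within 0.08 of each other on the log2 scale.

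Translation and chaperone genes stood beside them. Eef1a1, which brings aminoacyl-tRNA to the ribosome, had 2376, 2625 and 2507 CPM. Hspa8, the constitutive Hsc70 chaperone, had 1744 CPM in replicates 1 and 2 and 1797 in replicate 3. The motor and scaffold genes Map2, Kif5a, Sptan1, Sptbn1, Dync1h1 and Map1a were also among the 20 highest, with means of 2286, 2226, 2122, 1854, 1766 and 1739 CPM. Actb (beta-actin) and Mbp (myelin basic protein) completed the abundant structural genes with means of 2082 and 1732 CPM.

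Adcy1, Camk2a, Ncdn and Ppp3ca, also among the 20 highest, were higher in replicate 2. Of the motor and scaffold genes above, Map2, Kif5a, Sptbn1 and Dync1h1 were lowest in replicate 2, and Sptan1 and Map1a were highest there. The calcium-stimulated adenylyl cyclase gene Adcy1 had 1801 CPM in replicate 1, 3465 in replicate 2 and 1675 in replicate 3. Camk2a, the alpha subunit of the postsynaptic calcium/calmodulin kinase, had 2182, 2988 and 1529 CPM. Ncdn (neurochondrin) had 1572, 2438 and 1382 CPM. The calcineurin catalytic subunit Ppp3ca had 1456, 2300 and 1432 CPM. Replicates 1 and 3 lay close together in Adcy1, Ncdn and Ppp3ca, while in Camk2a all 3 were apart.

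**Figure D1:**
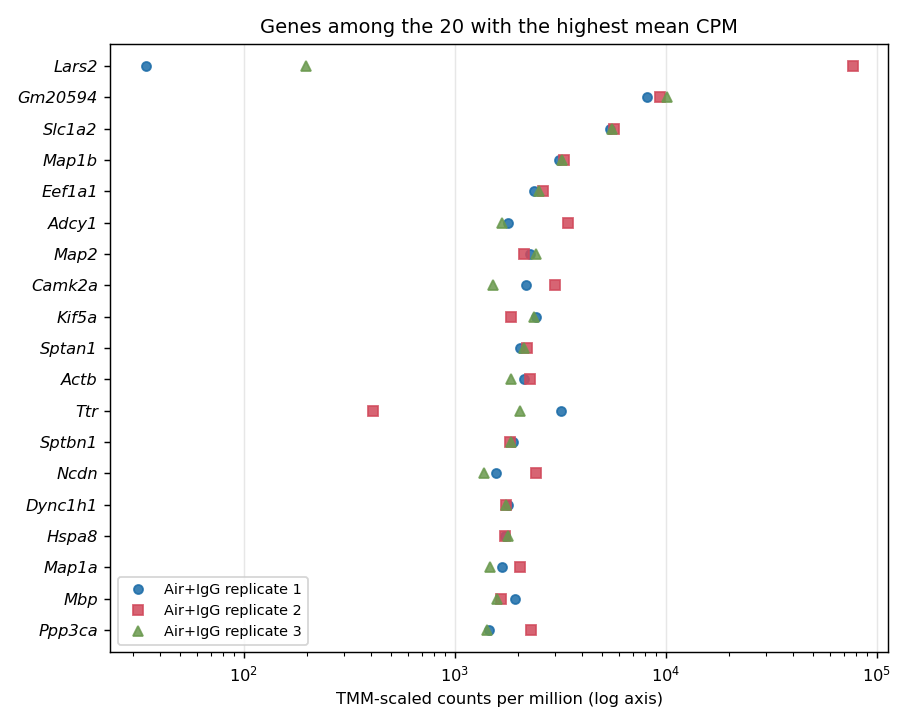
TMM-scaled CPM on a log axis of genes among the 20 with the highest mean CPM, with 1 point per Air+IgG library. Most genes have 3 nearly coinciding points, Lars2 runs from 34.4 to 77054 CPM and Ttr from 412 to 3191 CPM.

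The 10 highest genes of each library took 3.55% of the counts in replicate 1, 10.4% in replicate 2 and 3.68% in replicate 3. The excess in replicate 2 came with 1 gene. Lars2, the mitochondrial leucyl-tRNA synthetase (chromosome 9, 123366927 to 123462666, GRCm38), had 329 counts in replicate 1, 593544 in replicate 2 and 2167 in replicate 3, or 34.4, 77054 and 198 CPM. It held 7.13% of all counts in replicate 2 and ranked first there, while it ranked 6110th in replicate 1 and 993rd in replicate 3. Without Lars2 and AA474408 the 10 highest genes held 3.55%, 3.75% and 3.69%. On the same footing the 100 highest held 14.3%, 14.8% and 14.3%, and the 1000 highest held 46.3%, 47.5% and 46.1%. With all genes included, 50% of the counts were reached after 1192, 938 and 1203 genes.

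AA474408, a transcript on chromosome 7 (110057987 to 110061325, GRCm38), had the next highest variation: 4.18, 170 and 3.75 CPM. The main Lars2 transcript in GENCODE M21, of 3894 bases, shares an unbroken run of 41 bases with that of AA474408, of 3339 bases. The run lies in the annotated 3' UTR of Lars2, in exon 21, and no coding sequence is annotated in AA474408. The first 30 bases of it, identical in both, are shown because these 2 genes had the highest variation of the libraries, on GRCm38 at chr9:123461942-123461971 (plus strand) and chr7:110059790-110059819 (minus strand).
Lars2: tgtcagaaaagttaccacagggataactgg
AA474408: tgtcagaaaagttaccacagggataactgg
As background, these letters occur in the conserved core of large-subunit ribosomal RNA; no ribosomal RNA sequence was compared here, and a part of such RNA in the counts was not tested.

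Per kilobase, the order changed and short genes came forward. Gm20594, a predicted gene of 449 exon bases (chromosome 6, 79817916 to 79818364, GRCm38), was highest, with 94768 ± 9798 TPM (SD, n = 3). It had 8167, 9445 and 10158 CPM, the highest level in replicates 1 and 3 and the next after Lars2 in replicate 2. Lars2 came next per kilobase, through replicate 2 alone. Behind it stood Ttr with 7396 ± 5572 TPM, Gm10123 with 5226 ± 492 TPM and Eef1a1 with 4615 ± 118 TPM. The SD of Ttr spans all of the levels from Gm10123 to Calm3, so that its place among them is not fixed by these libraries.

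Several of the 10 genes highest per kilobase share sequence with other genes, so their values are uncertain. Of the 31-base words of Eef1a1, 49.8% also occur in transcripts of other genes, and of those of Actb, 23.5%. Of the 419 such words of Gm20594, 42 also occur in mt-Rnr2, the large mitochondrial ribosomal RNA, and the longest unbroken run the 2 transcripts share has 65 bases. The first 30 bases of that run, annotated as coding in Gm20594, are shown because this gene led every ranking per kilobase, at chr6:79818283-79818312 (plus strand, GRCm38).
Gm20594: tttaatcagtgaaattgacctttcagtgaa
All 264 words of Gm10222 occur in mitochondrially encoded transcripts, and all 460 words of Gm10123 occur in Ppia, the cyclophilin A gene. Gm10222 had 274, 221 and 202 CPM and Gm10123 had 590, 516 and 562 CPM. The 0 genes with a mitochondrial name in the table leave those transcripts not analysed here.

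Calm2 and Calm3, which encode calmodulin, the calcium sensor of neurons, were also among the 10 highest per kilobase, with 3909 ± 131 TPM and 2496 ± 167 TPM. The gap between them was larger than these SDs. In CPM, Calm2 had 1173, 1313 and 1257 and Calm3 had 1269, 1454 and 1226, and the 2 genes overlapped. Their 450 coding bases differ at 78 positions (82.7% identity), while 0 of the 149 residues differ. Coding bases 61 to 120, read from the GENCODE M21 transcripts, are shown because they tell how the same protein is written by both genes, with capitals at positions that differ, on GRCm38 at chr17:87435849-87435908 (minus) and chr7:16917643-16917702 (minus).
Calm2: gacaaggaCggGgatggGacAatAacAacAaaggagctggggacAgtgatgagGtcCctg
Calm3: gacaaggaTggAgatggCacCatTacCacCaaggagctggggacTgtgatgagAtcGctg
Of the 31-base words of Calm2, 18.1% are shared with other transcripts, and of those of Calm3, 4.99%.

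The 100 genes highest in CPM had a median exon length of 7517 bases and a median of 20 exons, and the 100 highest per kilobase had 2903 bases and 7 exons. All genes of the table had medians of 4483 bases and 10 exons. The letters TATAAA, searched on both strands, stood in the window from 250 bases before to 50 after the start of 11 of 63 of the genes highest per kilobase that had a RefSeq promoter on GRCm38.p6 (17.5%). They stood in 8 of 65 of those highest in CPM (12.3%) and in 1000 of 11336 of all genes (8.82%).

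Among gene families grouped by symbol stem, solute carriers took the largest share of counts of the 25 families, 2.28% ± 0.117 (SD, n = 3) over 284 genes, led by Slc1a2 and by Slc24a2, a potassium-dependent sodium/calcium exchanger with 1334, 1657 and 1215 CPM. Predicted genes with a Gm name held 1.51% ± 0.135 over 308 genes, most of it Gm20594. Zinc finger genes with a Zfp name held 1.08% ± 0.0361 over 363 genes. Cytosolic ribosomal proteins held 0.747% ± 0.0439 over 83 genes, led by Rpl4 (386, 415 and 394 CPM).

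Among receptor and channel families, glutamate receptors and potassium channels held the largest shares. Ionotropic glutamate receptors held 0.559% ± 0.0353 of the counts over 18 genes and potassium channels 0.544% ± 0.0180 over 81 genes, shares that lay within 1 SD of each other. Rab GTPases, which direct vesicle traffic, held 0.553% ± 0.0498 over 64 genes. Gria1 and Gria2, AMPA receptor subunits, led the glutamate receptors with means of 1379 and 1213 CPM. Voltage-gated calcium channels held 0.322% ± 0.0142, voltage-gated sodium channels 0.269% ± 0.00267 and GABA-A receptors 0.206% ± 0.00600.

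**Figure D2:**
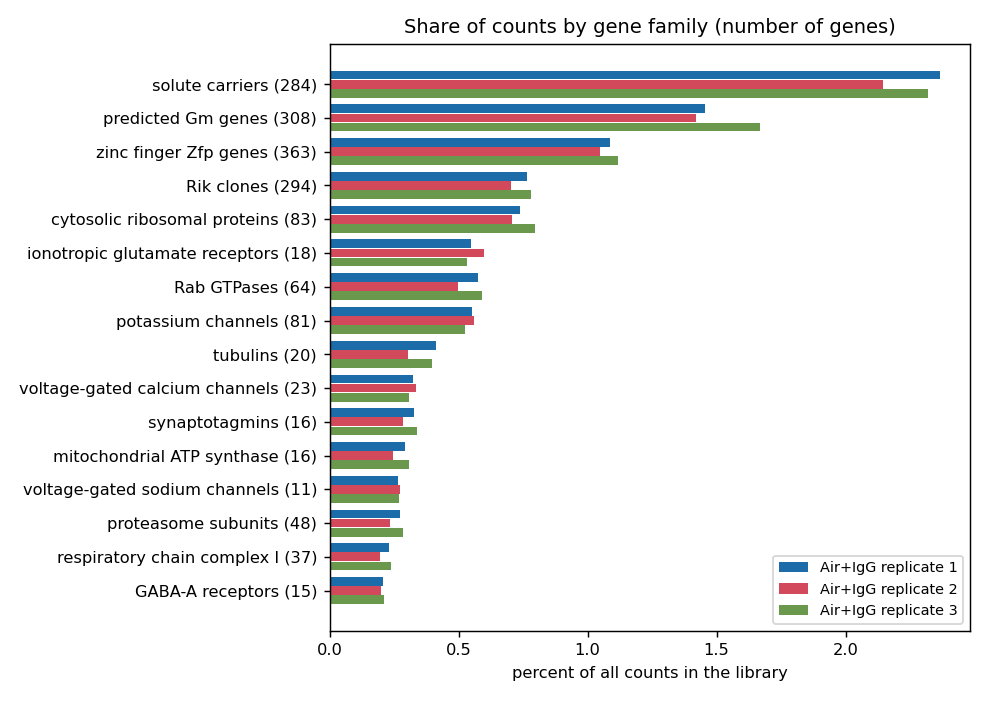
Share of all counts held by the 16 families with most counts, as bars from 0 for each Air+IgG library, with the number of genes in parentheses. Solute carriers lead in all 3 libraries, and replicate 2 has lower shares in most families, where Lars2 held 7.13% of its counts.

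All genes of the marker lists for hippocampal neurons and glia had values, from the Prox1 of dentate granule cells to the Olig1 of the oligodendrocyte lineage. Astrocyte genes held 1.10% ± 0.0569 of the counts over 15 genes, led per kilobase by Glul (2270 TPM), the glutamine synthetase gene. Oligodendrocyte and myelin genes held 0.458% ± 0.0557, led by Mbp (942 TPM). GABAergic interneuron genes held 0.155%, led by the peptides Cck (576 TPM) and Sst (567 TPM). Microglial genes held 0.0490% and oligodendrocyte precursor genes 0.0328%, the latter led by Olig1 at 99.9 TPM.

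The spread of the glial lists was close to or below that of the genes at large. The median gene of the 13844 differed by 0.28 on the log2 scale, or 1.21-fold, between its highest and lowest library. This median fell with level, from 0.34 at 5 to 20 CPM to 0.22 at 20 to 100 CPM and 0.20 at 100 to 1000 CPM. The glial lists were not matched to genes of like level. The same median was 0.21 for astrocyte, 0.21 for oligodendrocyte, 0.20 for precursor and 0.28 for microglial genes, and 0 of their genes were over 2-fold. The differences were small but 1-sided in some lists: replicate 2 was highest in 14 of 15 microglial genes and lowest in 10 of 15 oligodendrocyte genes. It was highest in 7 and lowest in 6 of 15 astrocyte genes, and highest in 1 and lowest in 4 of 10 precursor genes. By count, 792 of the 13844 genes (5.72%) were over 2-fold between highest and lowest library, and this share is the background for the lists that follow. Between replicates 1 and 3 alone, with the scaling and filter of all 3 libraries, the background was 0.823%. Over the 40 lists the genes over 2-fold between replicates 1 and 3 were Col1a1, Lars2 and 3 globin genes. The counts over 2-fold of the other lists were thus 0 in that comparison.

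The spread was wider at low levels. Of genes at 1 to 5 CPM, 19.1% were over 2-fold, of those at 5 to 20 CPM 7.003%, at 20 to 100 CPM 2.12% and at 100 to 1000 CPM 1.18%. Above 1000 CPM, 4 of 63 genes were over 2-fold (6.35%): Lars2, Ttr, Enpp2 and Adcy1. The counting error expected from the mean count had a median of 19.4%, 9.77%, 4.97% and 2.495% of the level in the 4 classes up to 1000 CPM. The common biological coefficient of variation, the spread left after counting error, was 0.140 in edgeR's estimate over the 3 libraries. It was 0.0687 without replicate 2, 0.167 without replicate 1 and 0.165 without replicate 3. Replicate 2 was the library farthest from the middle one in 6837 of the 13844 genes (49.4%) and in 578 of the 792 genes over 2-fold (73.0%), where it was low in 412 and high in 166.

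**Figure D3:**
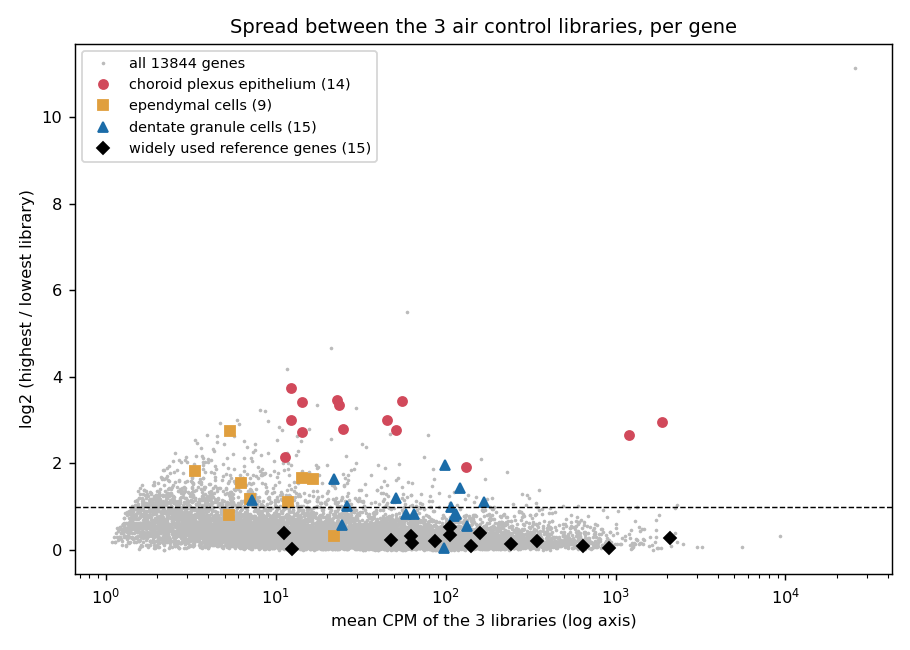
Each of the 13844 genes by its mean CPM (log axis) and the log2 ratio of its highest to its lowest library, with 4 gene lists coloured and the 2-fold line dashed. Choroid plexus genes lie above the line at every level, the reference genes below it.

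Choroid plexus genes were the list with the largest spread apart from Lars2 and its companions. All 14 genes were highest in replicate 1, middle in replicate 3 and lowest in replicate 2, and all 14 were over 2-fold, at a median of 7.88-fold. Ttr, the thyroxine carrier transthyretin, had 3191 CPM in replicate 1, 412 in replicate 2 and 2042 in replicate 3. Enpp2 (autotaxin) had 1983, 312 and 1286 CPM. Kcnj13, a potassium channel of this epithelium, had 42.1, 6.10 and 26.98 CPM.

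Water and bicarbonate transport genes of this epithelium followed the same order. The water channel gene Aqp1 had 22.5, 1.69 and 12.6 CPM, and the bicarbonate transporter gene Slc4a5 had 42.9, 3.89 and 21.9 CPM. F5 (coagulation factor V), Tmem72, Mfrp and Kcne2, all among the 20 most variable genes, likewise were highest in replicate 1 and lowest in replicate 2, with ranges between 3.21 and 3.45 on the log2 scale. The 14 genes summed to 5886, 840 and 3758 CPM, or 0.610%, 0.0777% and 0.392% of the counts. Between replicates 1 and 3 alone, 0 of the 14 were over 2-fold, at a median difference of 0.74 on the log2 scale, against 0.13 over all genes.

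Ependymal genes were lowest in replicate 2 as well, in 9 of the 9 genes above 1 CPM in every library, and 7 of the 9 were over 2-fold. Foxj1, the transcription factor of motile cilia, had 16.3, 7.53 and 11.7 CPM. Cfap52, a cilia protein gene, had 7.01, 1.17 and 7.86 CPM, and Cfap126 had 5.02, 1.43 and 3.66 CPM. Tppp3, the highest of the list per kilobase, differed little, with 21.6, 19.6 and 24.6 CPM. Of the 12 genes named in the list, 3 did not pass 1 CPM in every library, among them Tmem212 with 3.77, 0.65 and 3.02 CPM. Between replicates 1 and 3, 0 of the 9 genes were over 2-fold.

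Because these genes move together, their promoters were searched for GTTGCC on both strands, part of the X-box that RFX factors of cilia genes bind. It stood in 3 of the 9 ependymal genes with a RefSeq promoter (33.3%), in 2 of 9 choroid plexus genes (22.2%) and in 1726 of 11336 of all genes (15.2%). The matches, in capitals, are shown with the strand of the gene on GRCm38.p6: Hydin at chr8:110266952-110266981, Dynlrb2 at chr8:116504952-116504981 and Ccdc153 at chr9:44240513-44240542, all plus strand.
Hydin: tgcggttgctgtGGCAACagatggtaacaa
Dynlrb2: acttcctgcctgGTTGCCtagcaacggggg
Ccdc153: ctgagttttccaGTTGCCtggacaacgtgc
These genes, outside the rule for named genes and chosen for their match, had 24.3, 7.79 and 17.4 CPM (Hydin), 2.62, 0.91 and 2.19 CPM (Dynlrb2) and 5.13, 3.89 and 6.86 CPM (Ccdc153). The OTX motif TAATCC, searched likewise, stood in 1 of 9 choroid plexus genes (11.1%), Otx2 itself, and in 6.89% of all genes. Counts this small describe the windows and no more.

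Dentate granule cell genes ran the other way. Replicate 2 was highest in 14 of 15 genes, and 7 of the 15 were over 2-fold, at a median of 1.98-fold. Lct, the lactase gene, known as a dentate granule cell marker in mice, had 50.2 CPM in replicate 1, 196 in replicate 2 and 52.5 in replicate 3. The complement-like synaptic protein gene C1ql2 had 39.02, 79.2 and 34.2 CPM, and Plk5 had 16.2, 38.04 and 12.3 CPM. Prox1, the transcription factor that defines these cells and named here after its values were seen, had 131, 256.1 and 118 CPM. Calb1 (calbindin) was the exception, with 95.7, 97.8 and 99.2 CPM. Between replicates 1 and 3, 0 of the 15 genes were over 2-fold, and their median difference was 0.14 on the log2 scale.

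**Figure D4:**
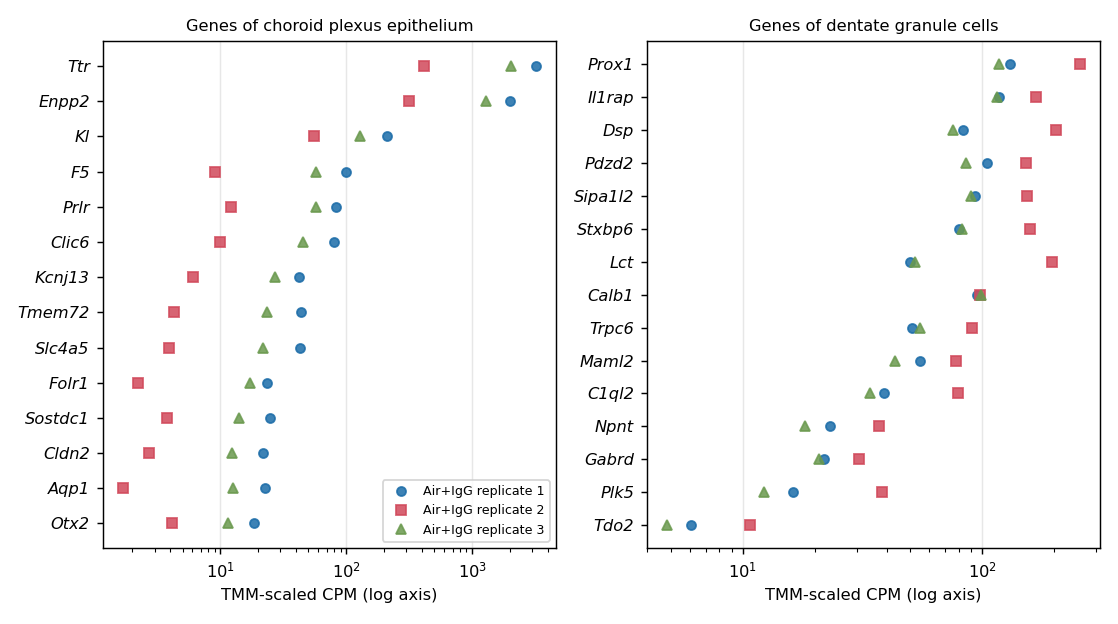
CPM on a log axis of each choroid plexus gene (left) and each dentate granule cell gene (right), with 1 point per Air+IgG library. Replicate 2 is the lowest point in all 14 genes on the left and the highest in 14 of the 15 on the right.

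Genes of the other hippocampal fields differed less than the dentate genes, whose median range was 0.99 on the log2 scale. Their median ranges, 0.60 for CA1 and 0.63 for CA2 and CA3, were above the 0.28 of all genes. Over the 10 CA1 genes, replicate 2 was lowest in 6 and highest in 4, and 2 were over 2-fold. Wfs1, a CA1 marker, had 91.5, 125 and 88.9 CPM, whereas Ccn3 had 141, 55.4 and 141 CPM. Of the 15 CA2 and CA3 genes, replicate 2 was highest in 9 and lowest in 5. Their median deviations were -0.09, 0.21 and -0.09 in the 3 libraries. In this list 1 gene was over 2-fold, Iyd with 3.03, 7.14 and 1.74 CPM. Nptx1 (neuronal pentraxin 1) had 367, 580 and 293 CPM and Crym 138, 77.2 and 149 CPM.

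Markers of neighbouring brain regions and of vessels differed between replicate 2 and the others in some lists and not in all. Cortical layer genes were lowest in replicate 2 in 8 of 9 genes, as in Cux2 (52.5, 19.99 and 45.9 CPM) and Cplx3 (6.90, 1.04 and 7.32 CPM), and 4 were over 2-fold. Of these 4, Foxp2 (4.81, 4.41 and 9.14 CPM) and Ccn2 (11.8, 8.83 and 21.1 CPM) stood apart more in replicate 3, where they were high. Striatal genes were lowest there in 8 of 11 genes, and 2 were over 2-fold. Thalamus and habenula genes had no single direction: replicate 2 was highest in 3 and lowest in 3 of 8, and 3 were over 2-fold. Calb2 (calretinin) had 31.7, 5.32 and 26.3 CPM and Slc17a6 had 36.3, 18.3 and 40.2 CPM, both lowest in replicate 2. Nrgn (neurogranin), the highest member of the list, had 317, 424 and 281 CPM and was highest in replicate 2. It held 0.0338% of the counts, out of 0.0444% for the whole list, so the list total describes mainly this gene. Whether the counts of these genes come from thalamus or habenula was not tested. Brain endothelial genes were highest there in 10 of 12 genes with 0 over 2-fold, as in Cldn5, the claudin of the blood-brain barrier (11.6, 18.2 and 10.9 CPM). Pericyte and smooth muscle genes were highest there in 8 of 10 genes, and 3 were over 2-fold. Tagln and Myh11, contractile genes of smooth muscle, had 4.29, 12.6 and 5.03 CPM and 10.9, 27.9 and 13.99 CPM. Meningeal fibroblast genes had a median deviation of -0.32, 0.34 and -0.03 in the 3 libraries, and 5 of 14 were over 2-fold. Collagens, which fibroblasts and vessel walls deposit, had 15 of 39 genes over 2-fold; they were counted by symbol, which takes in Col4a3bp, a lipid transfer protein. Between replicates 1 and 3 alone, the counts over 2-fold fell to 0 for the cortical, striatal, thalamic and pericyte genes, to 1 of 14 for the meningeal genes (Col1a1) and to 2 of 39 for the collagens (Col1a1 and Col6a4). The part of tissue composition in the separation of replicate 2 was not tested.

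Fat2 and Cbln3, known from cerebellar granule cells, and Car8, known from Purkinje cells, were among the 20 most variable genes at low levels. Fat2 had 25.7, 1.43 and 7.59 CPM, Cbln3 12.1, 0.39 and 4.02 CPM and Car8 16.4, 2.08 and 8.50 CPM. In replicate 2 these levels rest on 11, 3 and 16 counts. All 3 genes were highest in replicate 1 and lowest in replicate 2, the order of the choroid plexus genes. No list of cerebellar genes was used.

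**Figure D5:**
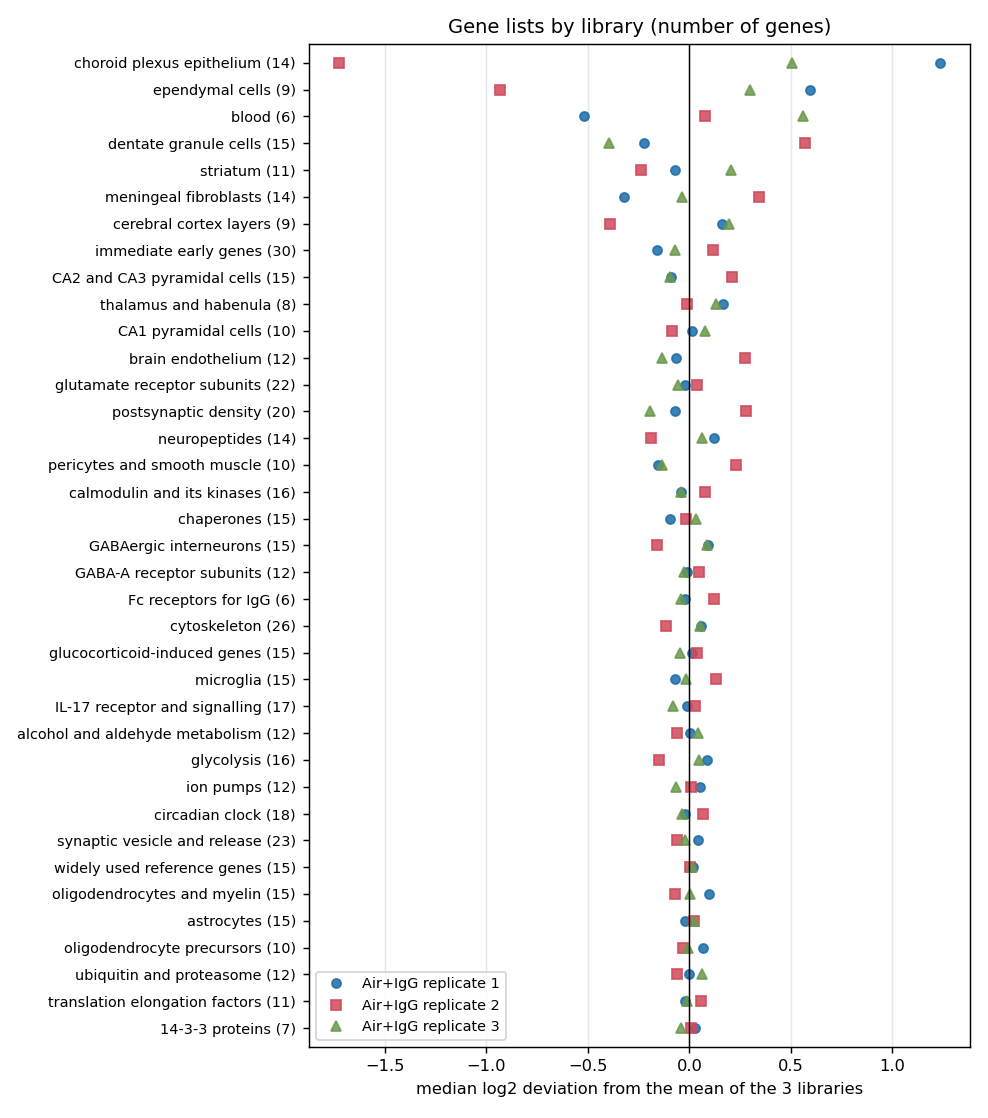
Median log2 deviation of each gene list from the mean of the 3 libraries, with 1 point per Air+IgG library and lists ordered by their median range (lists of at least 5 genes above 1 CPM). Replicate 2 lies at -1.73 for choroid plexus and 0.57 for dentate granule cells, and all points of the 14-3-3 proteins lie within 0.05 of 0.

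Postsynaptic density genes held 0.947% ± 0.108 of the counts and were highest in replicate 2 in 17 of 20 genes, while 1 was over 2-fold. Ddn (dendrin), a protein of dendrites, had 1002, 1714 and 879 CPM, and Gria1 had 1242, 1710 and 1185 CPM. Synaptic vesicle and release genes held 1.28% ± 0.0729 with 0 of 23 over 2-fold, and replicate 2 was highest in 9 and lowest in 12. Syt1, the calcium sensor of release, had 1522, 1337 and 1565 CPM, and Snap25 1286, 1223 and 1360 CPM. The difference between the 2 lists was not tested.

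Calmodulin and its partners held 1.34% ± 0.09998 of the counts over 16 genes, with replicate 2 highest in 11. Camk2d, the delta subunit of the kinase, ran against Camk2a with 101.4, 39.3 and 109 CPM, and the inhibitor gene Camk2n2 had 15.8, 7.66 and 13.8 CPM. These 2 were the only members over 2-fold, and both were lowest in replicate 2. The GABA-A receptor subunits had 1 of 12 genes over 2-fold, Gabra3, with 67.8, 29.2 and 71.1 CPM.

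Immediate early genes, which neurons switch on within minutes of activity, had a median range of 0.65 on the log2 scale, and 1 of 30 was over 2-fold. That gene was Arc, a cytoskeletal regulator of synapses, with 99.9 CPM in replicate 1, 215 in replicate 2 and 127 in replicate 3. Bdnf, a neurotrophin, had 34.8, 67.4 and 41.8 CPM. Replicate 2 was highest in 19 of the 30 genes and lowest in 8. The 18 circadian clock genes had a median range of 0.23 with 1 over 2-fold, Npas2, with 31.8, 16.7 and 35.0 CPM.

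Genes of interleukin 17 signalling, the pathway addressed by the series, had mean levels from 0.979 to 137 CPM in these controls, on both sides of the 24.4 CPM of the median gene. Of 20 genes named, 19 had values and 17 were above 1 CPM in every library, together 0.0548% of the counts. Il17rc, 1 chain of the receptor, had 4.18, 2.86 and 2.65 CPM. The highest members per kilobase were shared signalling genes, Map3k7 (62.7 TPM), Elavl1 (60.8 TPM) and Tab2 (59.4 TPM). The transcription factor gene Cebpb was the 1 member over 2-fold, with 3.77, 10.0 and 3.29 CPM.

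Red cell genes marked replicate 3 instead. Hbb-bs (beta-globin) had 4.81, 12.1 and 23.4 CPM and Hba-a2 (alpha-globin) 5.44, 8.44 and 19.7 CPM, and Hba-a1 had 1.15, 3.51 and 7.22 CPM. The alpha-globin genes share 92.6% of the 31-base words of Hba-a2, so their split is uncertain. These 3 genes were over 2-fold also between replicates 1 and 3. Alas2, the heme synthesis enzyme of red cell precursors, did not show this order, with 7.64, 10.1 and 8.96 CPM.

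Some of the most variable genes share sequence with others. Among the 20 genes of highest biological coefficient of variation, Gm6768 (20.3, 0 and 14.3 CPM) shares 96.6% of its words with Ncoa4 and Gemin4 (3.98, 0.52 and 13.3 CPM) 89.7% with other transcripts. Rpl27-ps3 (0, 22.3 and 26.6 CPM) lies wholly within Rpl27. Across the table, 66 of 398 genes sharing at least 50% of their words were over 2-fold (16.6%), with a median level of 12.4 CPM. The share was 7.48% (347 of 4637) in genes that share none, 4.17% (315 of 7549) in those sharing less than 10% and 4.23% (48 of 1135) in those sharing 10 to 50%, at median levels of 21.1, 34.5 and 27.1 CPM, so it did not rise steadily with the sequence shared. Of 12 genes at a mean of at least 2 CPM that were at 0 in 1 library, 10 shared at least 50%. Of the others among the 20, Fam220a had 2.20, 55.8 and 5.76 CPM and shares 61.0% of its words. Most of these, 60.4% of its words, occur in another gene entry of the same symbol. Hist2h2aa1, a histone gene, had 10.0, 0 and 7.68 CPM and shares 89.7%. Trhr, the receptor of thyrotropin-releasing hormone (8.58, 0.78 and 12.9 CPM), and Dsc3, a desmosomal cadherin (9.31, 0.39 and 9.88 CPM), share less than 1%. How far the division of reads between copies sets these values was not tested.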

How the data were processed

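Stranded polyadenylated RNA libraries were sequenced, per the labels' protocols. The authors deposited 1 table of expected counts per gene, unscaled, made with STAR 2.5.1a and RSEM 1.3.0 on GRCm38 per the submitters' processing notes. The release of the annotation they used is not given in the sources used here. RSEM splits a read between all transcripts it could come from, so values of near-identical genes are uncertain. Of the control values, 26.9% had decimals; they were rounded. GENCODE M21 (GRCm38) gave symbols for 14628 of 14779 identifiers, exon lengths and transcripts; promoters came from RefSeq. TMM scaling and the common dispersion used edgeR 4.0.16 in R 4.3.3, with DESeq2 1.42.0 size factors as an alternative, and the dispersion step was tested on simulated data. Python 3.11.15 computed the rest. The biological coefficient of variation of a gene subtracts the counting variance expected from its mean. Shared sequence was counted as 31-base words found in transcripts of other genes.

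Genes were named by rule: the 20 highest in mean CPM, 10 highest per kilobase, 20 most variable with a mean of at least 5 CPM, 10 steadiest with at least 100 CPM, 3 highest per kilobase and 2 widest of each list (all members of lists up to 10 genes), and 2 per family; genes without a symbol were not named, and a few others are not reported here. The 40 lists and 25 families were chosen with earlier results of these data known. All values are descriptions of 3 libraries, with no test between groups. The alternatives were other scalings, filters, lengths and thresholds, and each library left out.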

Additional observations from a re-analysis of the deposited data

How the results depend on the processing

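No paired analysis was possible because no groups are compared. Leaving out replicate 2 moved the measures of spread. The common biological coefficient of variation ranged from 0.0687 to 0.167 over the 3 omissions and the genes over 2-fold from 124 to 551. The median log2 range went from 0.13 to 0.20 and the genes kept among the 20 most variable from 5 to 15. The lowest of each came without replicate 2. Shares of counts of families and lists moved by less than 1 SD. Leaving 1 of 3 libraries out cannot move a mean by more, so this tells nothing of their steadiness. The list of Lars2 and its companions held 0.00406% of the counts in replicate 1, 7.15% in replicate 2 and 0.0211% in replicate 3. The highest genes held between 3.62% and 7.04% (10 genes), 14.3% and 17.5% (100) and 46.2% and 48.8% (1000). Between 8 and 10 of the 10 genes highest per kilobase were kept, and 5 with the median transcript as length. The count of 792 genes became 1465 with no filter on low values, 250 with CPM above 5, 2504 at 1.5-fold and 188 at 3-fold. DESeq2 size factors gave 795 genes and library totals alone 857. For neuropeptides, the median deviation in replicate 2 was 0.17 with CPM above 5 in place of -0.19. Over 37 gene lists of at least 5 genes, the median range moved by more than 1.5 times in 33 without replicate 2, 4 without replicate 1, 13 without replicate 3, 7 with library totals alone and 0 with DESeq2 size factors. Leaving out Lars2 and AA474408 (chosen after seeing the data, as was leaving out libraries for the most variable genes) gave a coefficient of 0.134. The causes were not tested. Genes under 5 CPM are limited by depth.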

Other observations

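The steadiest abundant genes of the air controls came from unrelated cell functions. Among genes with a mean of at least 100 CPM, Tuba4a, an alpha-tubulin, had 373 CPM in replicate 1, 372 in replicate 2 and 371 in replicate 3, and Calr, the calcium-binding chaperone of the endoplasmic reticulum, had 237, 236 and 237 CPM. Kif1b, a motor of axonal transport, had 1665, 1655 and 1656 CPM, and Picalm, an adaptor of clathrin-mediated endocytosis, 189, 189 and 191 CPM. The 10 steadiest genes, which also include Clcn6, Tet2, Dnal1, Arhgap35 and Clip2, varied by no more than the counting error expected from their means, so their order carries no information. The 7 measured 14-3-3 genes had a median range of 0.08 on the log2 scale, with Ywhaz at 913, 921 and 898 CPM and Ywhag at 594, 574 and 551 CPM, while Sfn, at 2.30, 1.17 and 1.37 CPM, had a range of 0.98.

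As a list, genes often used as references were about as steady as other genes of like level, though some members were less so. None of the 15 was over 2-fold, and their median range was 0.21. All genes at 20 to 100 CPM had a median range of 0.22 with 2.12% over 2-fold, and those at 100 to 1000 CPM 0.20 with 1.18%. Actb had 2124, 2267 and 1856 CPM, a range of 0.29 against a median of 0.23 for genes above 1000 CPM. Pgk1 had 184, 140 and 156 CPM, a range of 0.39. Gapdh, the widest of them, had 117, 81.9 and 119 CPM, a range of 0.54. Glycolysis genes as a list were lowest in replicate 2 in 13 of 16 genes, with 0 over 2-fold. Metallothionein genes differed little, with Mt1 at 124, 119 and 116 CPM and Mt2 at 53.2, 51.5 and 57.8 CPM.

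Replicates 1 and 3, the closest pair, still differed in a few genes, chosen here after their values were seen. Adnp had 23.7 CPM in replicate 1 and 3.84 in replicate 3, and shares 81.2% of its words with other transcripts. Col6a4 (2.72 and 11.3 CPM) and Col1a1 (11.0 and 26.2 CPM), both collagens, were higher in replicate 3 and share under 1% of theirs.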
